A study of Homo sapiens with 12 samples.

Results

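Keratins form the intermediate filaments of epithelial cells. The 10 keratin genes described here are KRT7, KRT8, KRT80, KRT81 and KRT5, which encode type II (basic) keratins, and KRT18, KRT19, KRT14, KRT15 and KRT17, which encode type I (acidic) keratins. They were taken by name as protein-coding rows of an expression table of 32152 genes, of which 17665 are protein coding and 43 are protein-coding genes named KRT and a number. RNA was sequenced in 12 libraries of MDA-MB-231 and Hs-578T, established human cell lines labelled as triple negative breast cancer. There were 6 libraries of each line, in pairs of parental control, ERK5-ko and MEK5DD by their labels. ERK5, the product of MAPK7, is a mitogen-activated protein kinase, and MEK5, the product of MAP2K5, is the kinase that activates it. MEK5DD is an active form of MEK5. According to the methods, the knockouts were made with CRISPR/Cas9 plasmids and grown from sorted single cells. Only 1 clone of MDA-MB-231 survived, and the Hs-578T clone that was sequenced is not named in the sources used here, nor is the making of the MEK5DD lines. The sample names gave passages 29 and 30 for the MDA-MB-231 parental cells, 7 and 8 for ERK5-ko and 10 and 11 for MEK5DD. In Hs-578T they gave 83 and 84 for the parental cells and 8 and 9 for ERK5-ko and also for MEK5DD. The paper made the knockouts from cells of higher passages than the ERK5-ko labels give, so these numbers do not continue the parental count. Against a parental control, genotype, passage number and, for ERK5-ko, descent from a sorted single cell thus cannot be told apart.

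Keratin filaments are built from obligate pairs of 1 type I and 1 type II chain, and the expressed pair marks the kind of epithelium. KRT8 and KRT18 are the pair of simple epithelia and of the luminal cells of the breast, where KRT7 and KRT19 accompany them. KRT5 and KRT14 are the pair of basal and myoepithelial cells, KRT15 is a keratin of basal keratinocytes, and KRT17 is found in basal cells and is induced by wounding. KRT80 is a type II keratin of differentiating epithelia, and KRT81 is a hair keratin. Loss of keratins with gain of vimentin is a classical feature of the epithelial-to-mesenchymal transition.

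The type II genes lie in a cluster on chromosome 12 of GRCh38, from KRT80 (ENSG00000167767.13, 52168996 to 52192000, minus strand) through KRT7 (ENSG00000135480.14, 52232520 to 52252186, plus strand), KRT81 (ENSG00000205426.10, 52285913 to 52291534, minus strand) and KRT5 (ENSG00000186081.11, 52514575 to 52520687, minus strand) to KRT8 (ENSG00000170421.11, 52897187 to 52949954, minus strand). KRT18 (ENSG00000111057.10, 52948871 to 52952901, plus strand) is the type I gene of that cluster and its span overlaps that of KRT8 by 1084 bases on the opposite strand. The other type I genes lie on chromosome 17 on the minus strand, namely KRT15 (ENSG00000171346.13, 41513743 to 41522529), KRT19 (ENSG00000171345.13, 41523617 to 41528308), KRT14 (ENSG00000186847.5, 41582279 to 41586921) and KRT17 (ENSG00000128422.15, 41619437 to 41624842).

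Close sequences make some keratin reads uncertain. Of the windows of 50 bases along the longest coding transcript of KRT81, 44.6% occur on either strand of another GENCODE 29 gene, 38.4% in KRT86, a second hair keratin. The share was 43.4% for KRT18, with 19.8% of all its windows in KRT8 transcripts that overlap it on the opposite strand and 9.17% in the pseudogene KRT18P11. It was 23.8% for KRT14, with 11.2% in KRT16, and 15.98% for KRT17, with 9.36% in KRT17P1. For KRT7 it was 10.8%, nearly all in the antisense gene KRT7-AS, and for KRT5, KRT8, KRT19, KRT80 and KRT15 it was 3.99%, 3.73%, 1.79%, 0.42% and 0.33%.

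The deposited unit is RPKM, the reads on a gene divided by its length in kilobases and scaled to 1000000 reads of the library. Library totals solved from these values lay between 20248162 and 27791195 reads. The mean RPKM of MAPK7 was 17.03 under the ERK5-ko label against 13.8 in MDA-MB-231 (limma, log2 fold change 0.29, adjusted p = 0.0709) and 17.9 against 14.97 in Hs-578T (log2 fold change 0.26, adjusted p = 0.0624), and blocking on the replicate number gave adjusted p = 0.0274 and 0.0252. MAPK7 RNA thus did not check the knockout, and directions below refer to the libraries as labelled. The paper reported from Western blots that ERK5 protein was strongly reduced in the knockout cells of both lines. MAP2K5 was higher in MDA-MB-231-MEK5DD (mean RPKM 186 against 13.2, adjusted p = 3.31e-10), whereas Hs-578T-MEK5DD had 22.5 against 15.8 (log2 fold change 0.50, adjusted p = 0.00492), under the fold threshold. Of the receptors that define the triple negative label, ESR1 had at most 0.12 RPKM and PGR at most 0.348, while ERBB2 RNA was present at 27.8 to 56.9. EPCAM, an epithelial surface protein, lay between 7.08 and 25.8 RPKM in MDA-MB-231 and at or under 0.0862 in Hs-578T. VIM, the mesenchymal filament vimentin, was at least 1598 RPKM in every library, and CDH1, epithelial cadherin, at most 1.16. Of the leukocyte markers CD3E was at or under 0.0247 RPKM and PTPRC at or under 0.396. Of the endothelial markers CDH5 was at or under 0.0259 RPKM and VWF at or under 0.214, while PECAM1 had up to 0.841 in MDA-MB-231 and 2.81 to 6.48 in Hs-578T. Replicates were consecutive passages of a culture, so p-values measure the spread between those. In bulk RNA, fewer cells that express a keratin and less keratin RNA per cell cannot be told apart.

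The parental lines were compared first. MDA-MB-231 parental cells were rich in the simple keratins, and Hs-578T parental cells expressed KRT18 with KRT14 and little KRT7 or KRT19. In RPKM, the order in MDA-MB-231 was KRT7, KRT8, KRT19, KRT18, KRT80, KRT81, KRT15, KRT17 and KRT14, with KRT5 listed at 0, and only KRT14 and KRT5 overlapped as neighbours. In Hs-578T it was KRT18, KRT8, KRT14, KRT7, KRT80, KRT15, KRT17, KRT81, KRT19 and KRT5, with no overlapping neighbours. The lengths behind the deposited RPKM are means over all annotated transcripts of a gene, short ones included (614 bases for KRT7, whose longest coding transcript has 1754). Per kilobase of the longest coding transcript, KRT8 stood first in MDA-MB-231, KRT7, KRT18 and KRT19 overlapped as neighbours, and KRT14 stood above KRT8 in Hs-578T. On that scale KRT7 overlapped with KRT80, and KRT15 with KRT17, as neighbours in Hs-578T.

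Among the simple keratins, KRT7 had 817 and 855 RPKM in the MDA-MB-231 parental libraries and 12.8 and 10.5 in those of Hs-578T. KRT8 had 677 and 744 RPKM against 50.7 and 46.9. KRT19 had 499 and 506 RPKM against 0.354 and 0.26, which in Hs-578T were 6 and 4 reads. KRT18 differed least of these 4 genes, at 356 and 384 RPKM against 213 and 141, and its Hs-578T libraries lay far apart from each other. The fitted log2 difference of MDA-MB-231 from Hs-578T on log2(RPKM + 0.5) was 6.11 for KRT7 (standard error 0.134, adjusted p = 3.47e-12, limma, Benjamini-Hochberg), 3.85 for KRT8 (adjusted p = 1.04e-11) and 1.09 for KRT18 (adjusted p = 7.24e-05). For KRT19 it was 9.29, but KRT19 passed the filter on low values only through MDA-MB-231. Its value ranged from 8.59 to 10.5 over the alternatives run, so no p-value is given for it. KRT80 was also higher in MDA-MB-231 (105 and 103 RPKM against 4.4 and 3.79, log2 difference 4.51, adjusted p = 3.01e-11), as was KRT81 (7.49 and 7.71 against 0.743 and 0.904, log2 difference 2.62, adjusted p = 1.14e-08).

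The basal keratins were distributed the other way. KRT14 gave 0 and 2 reads in MDA-MB-231 parental libraries against 1005 and 841 reads (38.7 and 35.7 RPKM) in Hs-578T, at least 369-fold higher there when 3 reads per library are taken as the floor. KRT17 had 0.615 and 0.718 RPKM against 1.54 and 1.74 (log2 difference −0.88, adjusted p = 0.000666). KRT5, the type II partner of KRT14, gave 0 reads in all 6 MDA-MB-231 libraries, where a count of 0 allows up to 3 reads or 0.136 RPKM, and 1 to 5 reads in the Hs-578T libraries. It passed no filter on low values and was not tested. KRT15 was indistinguishable between the lines at 2.82 and 2.71 against 3.16 and 2.78 RPKM (log2 difference −0.09, 95% interval −0.37 to 0.19). Of the 10 genes, 9 were tested, of which MDA-MB-231 had 6 higher and 2 lower, while 34.1% and 23.5% of the 13737 genes tested were called in these directions (adjusted p under 0.05 and fold above 1.5 either way). KRT14 and KRT19 entered the test only through the line that expresses them.

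**Figure D1:**
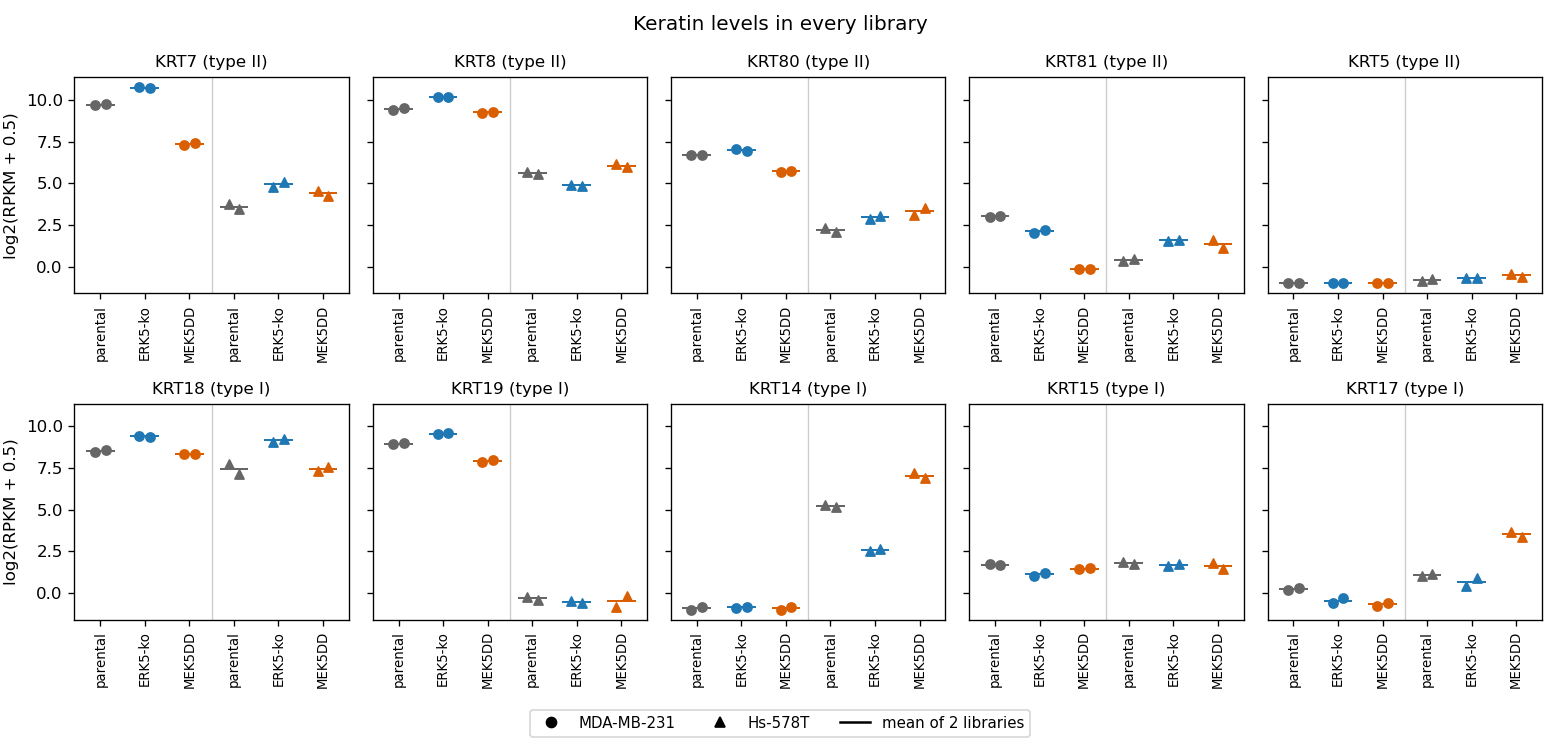
Level of each keratin gene as log2(RPKM + 0.5) in the 12 libraries, with circles for MDA-MB-231, triangles for Hs-578T, 1 point for each library and a line at the mean of 2 libraries. KRT7, KRT8, KRT80 and KRT19 sit higher in every MDA-MB-231 library than in any Hs-578T library, KRT14 the reverse, and KRT18 overlaps between the lines, the Hs-578T libraries labelled ERK5-ko reaching 547 and 596 RPKM.

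The 4 simple keratins rose together in MDA-MB-231-ERK5-ko. KRT7 went from 817 and 855 RPKM to 1761 and 1676, a fitted fold of 2.06 (log2 1.04, standard error 0.134, adjusted p = 0.000419). KRT8 went to 1142 and 1146 RPKM (log2 0.69, standard error 0.0971, adjusted p = 0.000724), and KRT18 to 692 and 671 RPKM (log2 0.88, standard error 0.163, adjusted p = 0.00375). For these 3 genes, the type II chains KRT7 and KRT8 and their type I partner KRT18, and also for KRT19, both libraries lay above both parental controls. KRT19, the smallest type I keratin, went to 748 and 776 RPKM (log2 0.60, adjusted p = 0.0292), a fold of 1.52 that only just passed the threshold of 1.5. It lost the call without any 1 of the 4 libraries compared (adjusted p = 0.11 to 0.148).

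The minor keratins KRT81, KRT15 and KRT17 of that line did not follow. KRT81 had 3.55 and 4.13 RPKM against 7.49 and 7.71 (log2 −0.90, adjusted p = 0.00168), KRT15 had 1.56 and 1.79 against 2.82 and 2.71 (log2 −0.59, adjusted p = 0.00881) and KRT17 had 4 and 8 reads against 16 and 21 (log2 −0.67, adjusted p = 0.0222). The adjusted p of these 3 was under 0.05, but none reached a fitted fold below 0.5. The fitted value of KRT17 depends on the pseudocount, since its mean RPKM was 0.236 against 0.666, and with a pseudocount of 0.1 it was called lower (log2 −1.21, adjusted p = 0.0143). KRT80 had 133 and 123 RPKM against 105 and 103, both libraries above both controls, but was not called (log2 0.30, 95% interval 0.02 to 0.58, adjusted p = 0.137). KRT14 stayed at 1 and 2 reads. In all, 4 of 9 tested keratins were called higher and 0 lower in MDA-MB-231-ERK5-ko, against 2.8% and 1.07% of all genes tested. By the adjusted p alone the counts were 4 and 3, against 6.91% and 10.4% of all genes. The median log2 change was 0.30 over the 9 keratins and −0.04 over all genes tested.

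In Hs-578T-ERK5-ko libraries, KRT18 rose and its partner KRT8 did not. KRT18 had 547 and 596 RPKM against 213 and 141 in the parental controls (log2 1.71, standard error 0.163, adjusted p = 1.49e-05) and thus stood above the 356 and 384 RPKM of the MDA-MB-231 parental controls. KRT8 had 29.7 and 27.9 RPKM against 50.7 and 46.9 (log2 −0.75, standard error 0.0971, adjusted p = 0.00013), lower by the adjusted p but not past the fold threshold. KRT14, the dominant basal keratin of that line, fell from 38.7 and 35.7 RPKM to 5.2 and 5.88 (log2 −2.64, standard error 0.133, adjusted p = 1.19e-07). These 3 genes each had both ERK5-ko libraries outside the range of the parental controls.

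The type II genes KRT7, KRT80 and KRT81 rose from low levels in Hs-578T-ERK5-ko. KRT7 had 26.9 and 33.9 RPKM against 12.8 and 10.5 (log2 1.35, adjusted p = 2.09e-05). KRT80 had 6.89 and 7.88 RPKM against 4.4 and 3.79 (log2 0.78, adjusted p = 0.000697). KRT81 had 2.45 and 2.54 RPKM against 0.743 and 0.904 (log2 1.18, adjusted p = 9.12e-05), from 29 and 32 reads to 110 and 105. KRT17 had 0.832 and 1.37 RPKM against 1.54 and 1.74 (log2 −0.44, adjusted p = 0.0668, and 0.0491 when blocked on the replicate number), and KRT15 and KRT19 had log2 values of −0.13 and −0.23 (adjusted p = 0.461 and 0.291). KRT19 gave 4 and 3 reads there, so a change was not detectable at this depth. Thus 4 of 9 tested keratins were called higher and 1 lower, against 9.35% and 3.27% of all genes. By the adjusted p alone 4 were higher and 2 lower, against 19.7% of all genes in each direction, and the median log2 change was −0.13 against 0.01 over all genes.

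MDA-MB-231-MEK5DD libraries lost most of their KRT7 and KRT81. KRT7 fell from 817 and 855 RPKM to 158 and 173 (log2 −2.33, standard error 0.134, adjusted p = 1.26e-07). KRT81 fell from 316 and 366 reads to 16 and 19 (0.389 and 0.401 RPKM, log2 −3.18, standard error 0.145, adjusted p = 2.08e-08). The fitted size of this fall depends on the pseudocount of 0.5, since the mean RPKM of KRT81 was 0.395 against 7.6. Over the alternatives run it ranged from −4.23 to −2.62. KRT19 fell to 236 and 252 RPKM (log2 −1.04, standard error 0.166, adjusted p = 0.000389), close to the fold threshold, and without MEK5DD replicate 1 the log2 value was −0.998 and no longer passed it. KRT80 had 51.1 and 53.5 RPKM against 105 and 103 (log2 −0.98, adjusted p = 9.39e-05), just outside the fold threshold. KRT17 gave 2 and 5 reads against 16 and 21, or a mean RPKM of 0.125 against 0.666. Its fitted log2 value was −0.90 with the pseudocount of 0.5 (adjusted p = 0.00147), outside the fold threshold, but −1.79 with a pseudocount of 0.1 and −2.31 by limma voom on recovered reads, where it was called lower. Without MEK5DD replicate 2 KRT80 and KRT17 both passed the threshold, at log2 −1.02 and −1.01.

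KRT8 and KRT18, the pair of simple epithelia, were not called in those cells. KRT8 had 595 and 630 RPKM against 677 and 744 (log2 −0.21, 95% interval −0.43 to 0.00, adjusted p = 0.103, and 0.0346 when blocked on the replicate number), both libraries lying below both controls. KRT18 had 328 in both libraries against 356 and 384 (log2 −0.17, 95% interval −0.53 to 0.19, adjusted p = 0.441). The intervals exclude a fall of KRT8 or KRT18 of the size measured for KRT7. KRT15 had 2.17 and 2.28 RPKM against 2.82 and 2.71 (log2 −0.26, adjusted p = 0.127). In all, 3 of 9 tested keratins were called lower and 0 higher, against 6.31% and 7.64% of all genes, and by the adjusted p alone 5 and 0, against 23.8% and 17.5%. Blocking on the replicate number adds KRT8 to those 5. The median log2 change was −0.90 over the 9 keratins and −0.01 over all genes tested. VIM, in contrast, rose from a mean RPKM of 1680 ± 100 (SD, n = 2) to 3455 ± 52.8 (SD, n = 2) in the same libraries (log2 1.04, adjusted p = 4.01e-05).

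In Hs-578T-MEK5DD libraries the basal keratins KRT14 and KRT17 rose most. KRT14 had 147 and 118 RPKM against 38.7 and 35.7 (log2 1.81, standard error 0.133, adjusted p = 9.1e-06). KRT17 went from 37 and 38 reads to 262 and 212 (12.3 and 9.81 RPKM against 1.54 and 1.74, log2 2.43, standard error 0.174, adjusted p = 8.15e-06). KRT5 stayed under the filter, with 5 and 3 reads against 1 and 2. KRT80 (8.17 and 10.9 RPKM against 4.4 and 3.79, log2 1.11, adjusted p = 0.000172), KRT81 (2.49 and 1.68 against 0.743 and 0.904, log2 0.95, adjusted p = 0.000969) and KRT7 (22.8 and 18.7 against 12.8 and 10.5, log2 0.81, adjusted p = 0.0016) also rose. With the spread estimated from only the 4 libraries compared, these last 3 had adjusted p values of 0.107, 0.123 and 0.137.

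KRT8 was higher by the adjusted p in Hs-578T-MEK5DD but under the fold threshold (71 and 61.4 RPKM against 50.7 and 46.9, log2 0.43, adjusted p = 0.0085). KRT18 (157 and 192 RPKM against 213 and 141) and KRT15 overlapped with the parental controls, and KRT19 gave 1 and 6 reads. In total, 5 of 9 tested keratins were called higher and 0 lower, against 2.9% and 1.49% of all genes. By the adjusted p alone 6 were higher and 0 lower, against 6.44% and 17% of all genes. The median log2 change was 0.81 over these 9 keratins and −0.08 over all genes tested. Since MEK5DD and ERK5-ko libraries of a line were set against the same parental controls, the 2 sets of values are not independent.

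**Figure D2:**
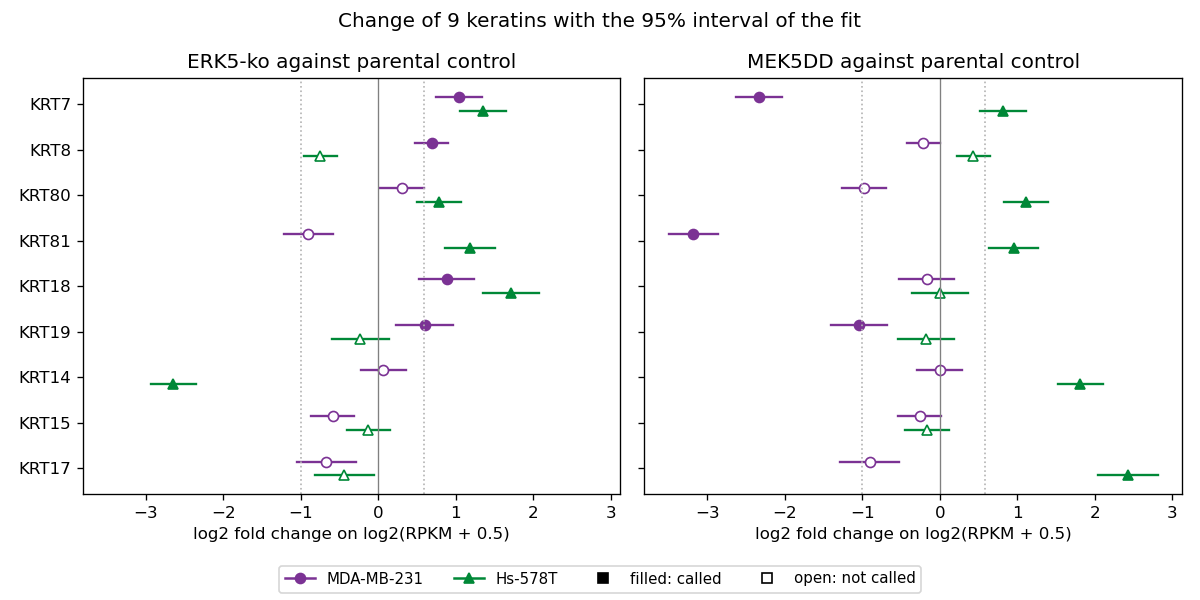
Fitted log2 fold change on log2(RPKM + 0.5) of the 9 tested keratins, with ERK5-ko against parental control on the left and MEK5DD against parental control on the right, bars for the 95% interval and dotted lines at the folds of 1.5 and 0.5. Filled symbols were called. KRT14 in Hs-578T lies at −2.64 on the left and at 1.81 on the right, and KRT7 in MDA-MB-231 at 1.04 and −2.33.

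The changes under each label were then compared between the lines. For MEK5DD, the change in MDA-MB-231 minus that in Hs-578T was negative and past the adjusted p for 7 of 9 tested keratins, against 18.2% of all genes in that direction, and positive for 0, against 21.3%. MAP2K5 RNA, given above, was far higher in MDA-MB-231-MEK5DD than in Hs-578T-MEK5DD, so the lines are not compared at equal levels of it. Whether this bears on the differences was not tested. KRT81 differed by −4.13 (standard error 0.205, adjusted p = 1.1e-07), KRT17 by −3.33 (adjusted p = 2.05e-06), KRT7 by −3.14 (adjusted p = 4.89e-07) and KRT80 by −2.10 (adjusted p = 7.17e-06) on the log2 scale. The sizes for KRT81 and KRT17 depend on the settings, since few of their reads were left in MDA-MB-231-MEK5DD. Over the alternatives run they ranged from −5.54 to −3.37 for KRT81 and from −5.04 to −2.75 for KRT17. In both MEK5DD libraries KRT7, KRT80 and KRT81 lay below the parental controls in MDA-MB-231 and above them in Hs-578T, with KRT80 outside the fold threshold in MDA-MB-231. The difference of KRT14, −1.81, comes from Hs-578T, since all MDA-MB-231 libraries had at most 2 reads. That of KRT19, −0.86 (adjusted p = 0.0129), comes from MDA-MB-231, since all Hs-578T libraries had at most 6. Both are counted among the 7. KRT19 lost this call with a pseudocount of 0.1 and by limma voom (adjusted p = 0.424 and 0.686). It also lost the call without MDA-MB-231 MEK5DD replicate 1 (log2 −0.82). KRT8 differed by −0.65 (adjusted p = 0.0033), while KRT18 and KRT15 did not pass (adjusted p = 0.588 and 0.704).

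For ERK5-ko, 3 of 9 keratins differed in the positive direction, against 18.3% of all genes, and 2 in the negative direction, against 21.5%. The differences of KRT14 (2.71) and KRT19 (0.83, adjusted p = 0.0161) again come from 1 line each. KRT19 lost this call with a pseudocount of 0.1, by voom and without any 1 of 3 libraries (adjusted p = 0.0529 to 0.107). KRT8 differed by 1.44 (standard error 0.137, adjusted p = 1.9e-05), being higher in MDA-MB-231-ERK5-ko and lower in Hs-578T-ERK5-ko than in the parental controls. KRT81 differed by −2.08 (adjusted p = 2.31e-05), the other way. KRT18 differed by −0.83 (adjusted p = 0.0145), with the larger rise in Hs-578T, and lost this call without MDA-MB-231 parental control replicate 2 (adjusted p = 0.0542) and without Hs-578T ERK5-ko replicate 2 (adjusted p = 0.0632). KRT7 rose in both lines, and its difference of −0.31 (95% interval −0.72 to 0.11, adjusted p = 0.219) did not pass. KRT80 differed by −0.48 (adjusted p = 0.0569, and 0.0422 when blocked on the replicate number).

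The keratin pool as a whole was summed over all 43 keratin genes per kilobase of the longest coding transcript and per 1000000 reads. It was 1255 and 1322 in MDA-MB-231 parental controls, 2208 and 2171 in ERK5-ko and 770.0 and 803 in MEK5DD libraries. In Hs-578T it was 248 and 185 in parental controls, 466 and 507 in ERK5-ko and 316 and 309 in MEK5DD. In both lines the ERK5-ko libraries had the highest sums and the groups did not overlap. These sums are given without a test, because 0.333 is the smallest two-sided p of an exact permutation of 2 against 2 libraries. The deposited RPKM gave the same order of groups, for example 2480 and 2618 in MDA-MB-231 parental controls, 4496 and 4414 in ERK5-ko and 1389 and 1458 in MEK5DD.

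Make-up changed along with the size of the pool. In MDA-MB-231, KRT7 made up 22.8% and 22.6% of the sum in parental controls, 27.9% and 27.0% in ERK5-ko and 7.19% and 7.53% in MEK5DD, and KRT8 took up the largest share in the last of these at 35.9% and 36.4%. In Hs-578T, KRT18 made up 64.4% and 57.3% of the sum in parental controls, 87.6% and 88.0% in ERK5-ko and 37.3% and 46.4% in MEK5DD. KRT14 made up 10.7% and 13.2%, 0.762% and 0.794%, and 31.8% and 26.2% in the same 3 groups. In Hs-578T-ERK5-ko a single keratin thus held most of the keratin RNA, while in Hs-578T-MEK5DD KRT18 and KRT14 held most of it between them. Other keratins than the 10 made up at most 2.31% of the MDA-MB-231 sums and 12.1% of those of Hs-578T, where KRT10, a keratin of differentiated epidermis, accounted for 2.59% to 8.69%.

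**Figure D3:**
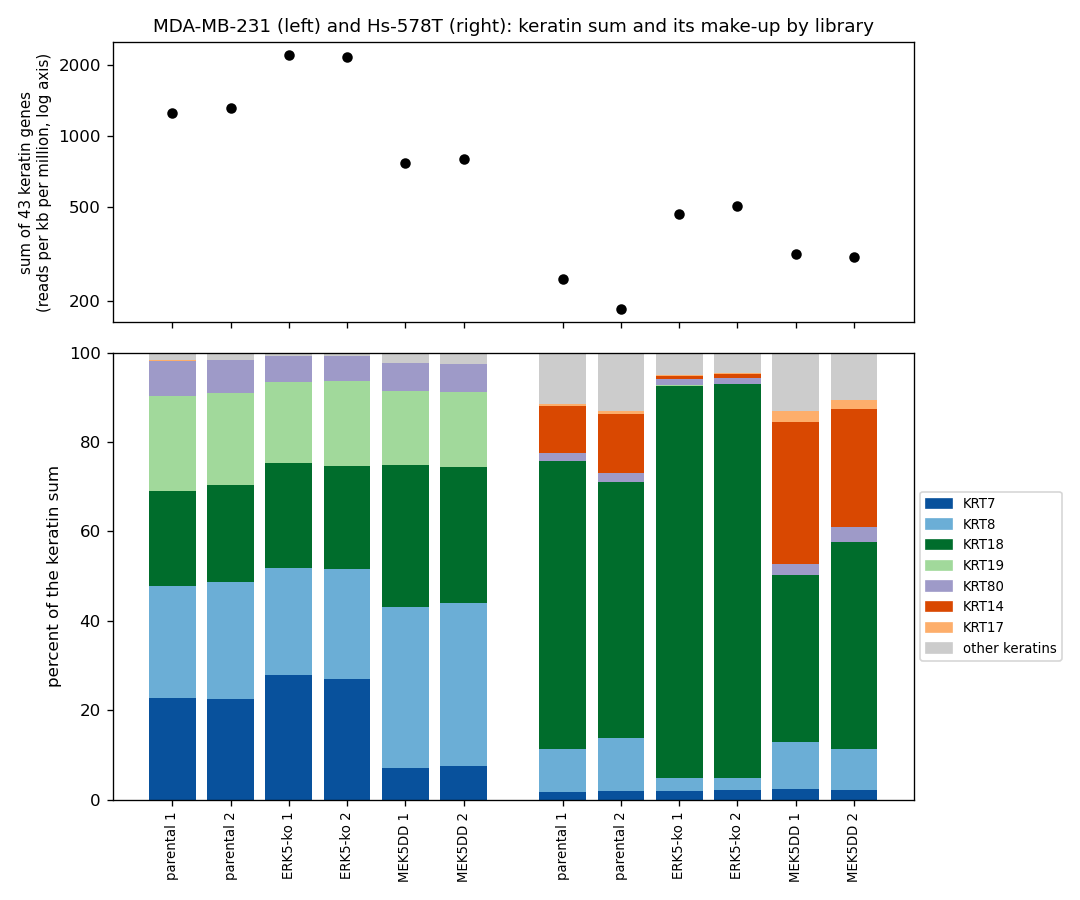
Upper panel, sum of 43 keratin genes in each library in reads per kilobase of the longest coding transcript and per 1000000 reads, on a log axis. Lower panel, share of that sum held by 7 keratins and by all others. KRT18 fills 87.6% and 88.0% of the Hs-578T libraries labelled ERK5-ko, and KRT14 fills 31.8% and 26.2% of those labelled MEK5DD.

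Filament chains are used in pairs, so the balance of the 2 types was also measured. The ratio of type I to type II levels on the same scale was 0.774 and 0.763 in MDA-MB-231 parental controls, 0.729 and 0.752 in ERK5-ko and 1.02 and 0.986 in MEK5DD. In Hs-578T it was 6.14 and 4.83, 12.2 and 12.4, and 4.88 and 5.26. Type I RNA therefore exceeded type II RNA in every Hs-578T library, most in ERK5-ko. The ratio of KRT8 to KRT18 lay between 1.02 and 1.203 in all 6 MDA-MB-231 libraries. In Hs-578T it was 0.148 and 0.206 in parental controls, 0.0337 and 0.0291 in ERK5-ko and 0.28 and 0.199 in MEK5DD, so the ERK5-ko libraries stood below both other groups, which overlapped. The exons of KRT8 and KRT18 share 525 bases on opposite strands, 16.3% of the exon bases of KRT18, and how the counting used strand is not given in the sources used here.

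Among the other 33 keratin genes, 8 passed the filter on low values. KRT16, an inducible partner of the wound response that shares sequence with KRT14, had 151 and 125 reads in Hs-578T parental controls, 72 and 59 in ERK5-ko and 268 and 321 in MEK5DD. It was called lower in ERK5-ko (log2 −1.14, adjusted p = 2.4e-05) and higher in MEK5DD (log2 1.13, adjusted p = 7.59e-05), the directions of KRT14 in both. KRT86, which shares sequence with KRT81, was called lower in MDA-MB-231-ERK5-ko (10 and 5 reads against 46 and 42, log2 −1.15, adjusted p = 0.000312) and higher in Hs-578T-MEK5DD (58 and 54 reads against 12 and 17, log2 1.27, adjusted p = 0.000143). In Hs-578T-ERK5-ko it had 20 and 19 reads, while KRT81 rose. KRT34, a hair keratin, was called higher in MDA-MB-231-MEK5DD (log2 0.95), Hs-578T-ERK5-ko (log2 0.97) and Hs-578T-MEK5DD (log2 1.04). KRT4 and KRT75 were called higher in Hs-578T-ERK5-ko (log2 0.96 and 1.16) at no more than 1.19 RPKM. Both passed the filter only through the ERK5-ko libraries, having at most 0.437 and 0.167 RPKM in any other library. Their calls thus rest on the group that admitted them to the test.

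**Figure D4:**
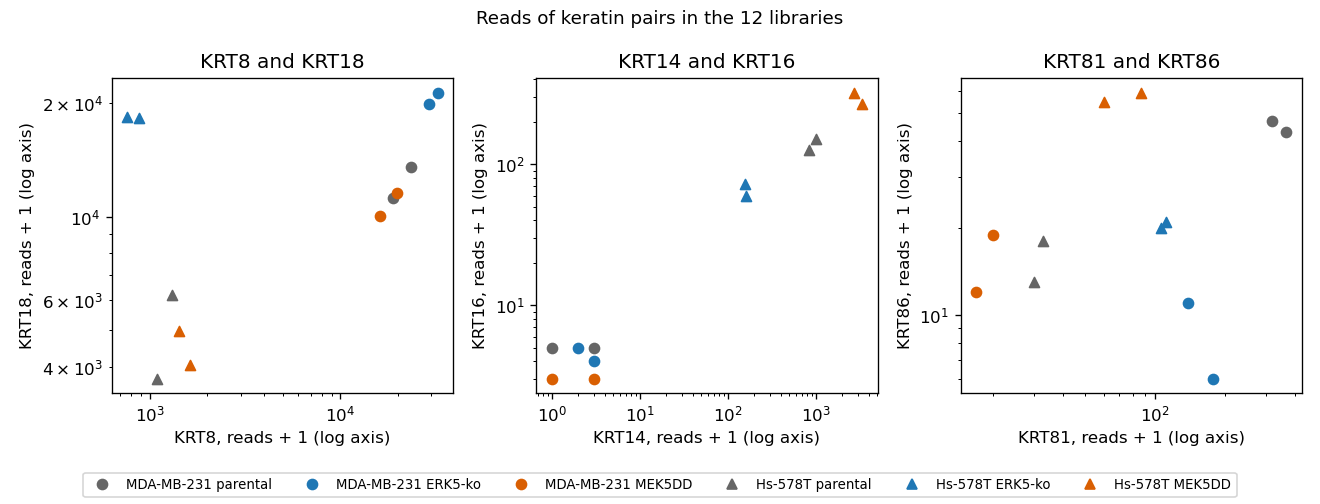
Reads plus 1 of KRT8 and KRT18, of KRT14 and KRT16, and of KRT81 and KRT86 in the 12 libraries on log axes, circles for MDA-MB-231 and triangles for Hs-578T, gray for parental controls, blue for ERK5-ko and orange for MEK5DD. The Hs-578T-ERK5-ko triangles in the left panel have 18185 and 18320 reads of KRT18 with 881 and 765 of KRT8, apart from all other libraries.

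Summing the copies did not turn the directions of the called changes, but KRT81 and, in Hs-578T, KRT14 held most of the summed reads. The sums thus largely repeat these genes and do not check KRT17. KRT18 was not summed with its copies. KRT81 and KRT86 together gave 14.7 reads per 1000000 in MDA-MB-231 parental controls, 6.88 in ERK5-ko and 1.23 in MEK5DD, and 2.08, 5.04 and 6.31 in the same groups of Hs-578T. KRT14, KRT16, KRT17 and their listed pseudogenes gave 50.4 reads per 1000000 in Hs-578T parental controls, 10.2 in ERK5-ko and 177 in MEK5DD. Pseudogenes named after KRT8 held 101 to 170 reads beside 16190 to 32350 of KRT8 in MDA-MB-231 libraries, but 228 and 244 beside 881 and 765 in Hs-578T-ERK5-ko. Of these, KRT8P12 had the most, 204 and 214 reads there, against 158 and 179 in parental controls and 74 and 98 in MEK5DD. Those of KRT18 held at most 59 reads in any library, KRT18P28 having the most, those of KRT19 at most 121, nearly all in KRT19P1 and in MDA-MB-231, and those of KRT17 at most 1, in KRT17P4.

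A few genes for proteins that anchor keratin filaments were called, in both directions. In the list of 20 plakins and desmosomal linkers, 17 genes were tested. Those called higher and lower were 1 and 1 in MDA-MB-231-ERK5-ko (2.8% and 1.07% of all genes), 2 and 1 in Hs-578T-ERK5-ko (9.35% and 3.27%), 0 and 3 in MDA-MB-231-MEK5DD (7.64% and 6.31%) and 2 and 0 in Hs-578T-MEK5DD (2.9% and 1.49%). In both ERK5-ko comparisons such small counts lie near the shares of all genes, and no result about the list is drawn from them. Blocking on the replicate number made 4 higher in Hs-578T-ERK5-ko. JUP, plakoglobin, was called higher in MDA-MB-231-ERK5-ko (143 and 144 RPKM against 73.0 and 83.5, log2 0.87, adjusted p = 0.00193) and lower in Hs-578T-ERK5-ko (17.4 and 13.2 against 52.9 and 61.5, log2 −1.88, adjusted p = 3.02e-06), where KRT8 had the same signs. In MDA-MB-231-MEK5DD the genes called lower included PPL, periplakin, at 2.57 and 2.45 RPKM against 38.0 and 37.1 (log2 −3.66, adjusted p = 6.38e-09), and JUP at 11.96 and 12.3 (log2 −2.64, adjusted p = 7.96e-08). In Hs-578T-MEK5DD PKP2, plakophilin 2, was called higher (log2 1.62, adjusted p = 4.66e-06), as was the desmosomal cadherin DSG2 (log2 0.68). COL17A1, a hemidesmosome collagen, was called lower in MDA-MB-231-ERK5-ko (log2 −1.26) and higher in Hs-578T-ERK5-ko (log2 0.72), where DSC3 was also called higher (log2 0.99). The median log2 change of the list was −0.14 in MDA-MB-231-ERK5-ko, 0.26 in Hs-578T-ERK5-ko, −0.19 in MDA-MB-231-MEK5DD and −0.03 in Hs-578T-MEK5DD, where all genes tested had −0.04, 0.01, −0.01 and −0.08.

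Of 23 epithelial transcription regulators 18 were tested. Those called higher and lower were 1 and 0 in MDA-MB-231-ERK5-ko (against 2.8% and 1.07% of all genes), 2 and 1 in Hs-578T-ERK5-ko (9.35% and 3.27%), 2 and 3 in MDA-MB-231-MEK5DD (7.64% and 6.31%) and 1 and 1 in Hs-578T-MEK5DD (2.9% and 1.49%). No result about this list is drawn from counts this small. In MDA-MB-231, ELF3, an epithelial ETS factor, was called higher in ERK5-ko (2.13 and 2.35 RPKM against 0.855 and 1.09, log2 0.90, adjusted p = 0.000235) and lower in MEK5DD, where 1 and 2 reads were left, at least 12.7-fold lower against 3 reads per library. ESRP2, a splicing regulator of epithelia, was called lower in MDA-MB-231-MEK5DD (0.587 and 0.775 RPKM against 5.003 and 4.86, log2 −2.21, adjusted p = 9.1e-08), while KLF5 was called higher (log2 0.66). In Hs-578T-ERK5-ko, GATA3 and KLF5 were called higher (log2 1.04 and 0.74) and TWIST1 lower (16.3 and 12.8 RPKM against 33.1 and 32.5, log2 −1.16, adjusted p = 3.78e-05). In Hs-578T-MEK5DD, KLF5 was called higher (log2 1.18) and ESRP1 lower (log2 −1.29). Of 16 other intermediate filament genes 10 were tested, and those called higher and lower were 0 and 0, 2 and 1, 2 and 3, and 0 and 1 in the same 4 comparisons, to be read against the same shares. The nuclear lamins LMNB1 and LMNB2 were called higher in Hs-578T-ERK5-ko (log2 0.85 and 0.74) and LMNB1 lower in Hs-578T-MEK5DD (log2 −1.02), and BFSP1 was called lower in Hs-578T-ERK5-ko (log2 −1.67). In MDA-MB-231-MEK5DD BFSP1 was called higher with VIM, and GFAP and NES lower (log2 −1.72 and −1.58). VIM itself did not pass in the other 3 comparisons (log2 −0.05 in both ERK5-ko comparisons and 0.09 in Hs-578T-MEK5DD). Among 10 genes of keratin network organisation, 9 were tested, and 1 was called higher in each ERK5-ko comparison, 2 higher and 1 lower in MDA-MB-231-MEK5DD and 0 in Hs-578T-MEK5DD. Against the same shares of all genes, 1 of 9 in Hs-578T-ERK5-ko was near the 9.35% called higher there.

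Genes with the most similar pattern were sought for the 8 keratins called in a comparison with parental controls, by the mean absolute difference over 12 libraries of log2(RPKM + 0.5) centred within each line. The nearest gene outside the keratins was CCL28 for KRT8 (0.0787, where KRT8 itself deviated by 0.392 on average), CASC10 for KRT19 (0.0861 of 0.392) and APCDD1 for KRT14 (0.131 of 0.825). It was ANKRD1 for KRT18 (0.192 of 0.596), CST4 for KRT81 (0.252 of 0.843), MAGEB16 for KRT17 (0.27 of 0.762) and ALDOC for KRT7 (0.274 of 0.882). Among these 7, KRT7, KRT17 and KRT81 thus had the least close neighbours in absolute terms.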

How the data were processed

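RNA of 12 libraries was grouped by cell line and label, 2 per group. The authors deposited RPKM values of 32152 genes. The submitters' processing notes name bcl2fastq, Trimmomatic 0.32, TopHat2 2.1.1, R 3.3.1, DESeq2 1.12.4 and GRCh38. The labels give 70% confluence at harvest and a stranded mRNA kit. The counting tool, its strand setting and the annotation are not given in the sources used here.

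Library totals and whole reads were solved from the RPKM steps. With the mean transcript length in GENCODE 29, 27628 of the 32152 genes gave whole reads in every library. Of 500 of these genes with many reads, 0 were whole with totals 1% off. For the other genes the length was itself chosen to give whole reads, so their wholeness is no check. A count of 0 allows up to 3 reads, for counting error only.

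log2(RPKM + 0.5) of the 13737 protein-coding genes that reached 0.5 RPKM in 2 or more libraries was modelled in R 4.3.3 by limma 3.58.1 (6 group means, 6 residual degrees of freedom, variance trend), with Benjamini-Hochberg adjustment within each of 7 comparisons. Calls against the parental controls of a line needed an adjusted p under 0.05 and, following the paper, a fold above 1.5 or below 0.5, and differences between the lines' changes the adjusted p alone. In simulated data, 200 genes were given a fold change larger than those of most keratins here. Of these, 192 passed the filter and were called. Smaller changes were not simulated.

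Deviations of same-numbered libraries, which are consecutive passages, correlated at 0.107 to 0.541 over 6 pairs of groups within the lines, so the fit with the replicate number as block is given where it changes a call. All 10 keratins are named, with other keratins called against parental controls, at most 2 called genes per direction of 3 lists, VIM, the pseudogene with the most reads per keratin, and the genes of ERK5 and MEK5. Some genes that this rule covers, and some sequences, are not reported here. Keratins and lists were chosen with earlier results of these data known. Beside 14 kinds of alternative (pseudocount, filter, scaling, libraries and gene types fitted, voom on recovered reads, block, fold rule, comparison group, each library left out), 3 were added after seeing the data (levels per longest coding transcript, and summed reads of 2 sets of copies). Tables and plots were made in Python 3.11.15 with pandas 2.3.3, numpy 2.4.6, scipy 1.17.1 and matplotlib 3.10.9.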

Additional observations from a re-analysis of the deposited data

Results flagged for a closer look

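The changes of 5 keratins under the ERK5-ko label and of 7 under the MEK5DD label differed between the lines in a test of the difference itself (limma, change in MDA-MB-231 minus change in Hs-578T, adjusted over 13737 genes). Of all genes 18.3% differed in the positive and 21.5% in the negative direction for ERK5-ko, and 21.3% and 18.2% for MEK5DD, so 5 of 9 keratins for ERK5-ko is near the background share. For ERK5-ko the log2 differences were 2.71 for KRT14, 1.44 for KRT8, 0.83 for KRT19, −0.83 for KRT18 and −2.08 for KRT81. For MEK5DD they were −4.13 for KRT81, −3.33 for KRT17, −3.14 for KRT7, −2.10 for KRT80, −1.81 for KRT14, −0.86 for KRT19 and −0.65 for KRT8. Over the alternatives run, those of KRT81 and KRT17 ranged from −5.54 to −3.37 and from −5.04 to −2.75. The MEK5DD label went with a far larger rise of MAP2K5 RNA in MDA-MB-231 than in Hs-578T, where it stayed under the fold threshold. KRT14 in MDA-MB-231 and KRT19 in Hs-578T had at most 2 and 6 reads in a library, so their differences repeat the change of 1 line each and do not show unequal responses of a gene expressed in both. KRT18 and KRT19 lost the ERK5-ko difference without single libraries, and KRT19 also lost the MEK5DD difference in this way.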

How the results depend on the processing

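Of 37 called keratin results, 25 kept direction and call under every alternative run for them and 12 lost the call under at least 1. Other fold rules were run only for ERK5-ko or MEK5DD against parental controls, and the exchanged comparison group only for ERK5-ko. For MDA-MB-231-ERK5-ko, the count called lower was 0, and 1 with a pseudocount of 0.1 (KRT17) and 3 with a fold below 1/1.5 or with no fold threshold. For Hs-578T-ERK5-ko, the count called lower was 1, and 2 under the same 2 fold rules (with KRT8). With MEK5DD libraries as the comparison group, 1 was called higher and 3 lower. For MDA-MB-231-MEK5DD, 3 were called lower, and 5 under both fold rules, while leaving out 1 library gave 2 to 5. For Hs-578T-MEK5DD, 5 were called higher, but 2 with only the libraries compared. For the ERK5-ko difference between lines, 2 were called lower, 4 with only the libraries compared, and 1 to 3 without 1 library, KRT18 being lost without MDA-MB-231 parental control replicate 2 (adjusted p = 0.0542) and without Hs-578T ERK5-ko replicate 2 (0.0632). KRT19 lost its call in MDA-MB-231-ERK5-ko also under quantile normalization, no filter and a pseudocount of 0.1 (adjusted p = 0.0838, 0.0579 and 0.294). Its ERK5-ko difference had an adjusted p of 0.107 with that pseudocount and by limma voom, and 0.0529 to 0.0613 without 1 of 3 libraries. Its MEK5DD difference had an adjusted p of 0.424 with a pseudocount of 0.1, and 0.686 by limma voom on recovered reads. It also lost the call without MDA-MB-231 MEK5DD replicate 1. The MEK5DD difference of KRT14 had an adjusted p of 0.178 by voom. KRT17 was called lower in MDA-MB-231-MEK5DD with a pseudocount of 0.1 and by voom (log2 −1.79 and −2.31). The causes were not tested.

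Signs turned only where the value was near 0 or the comparison group was exchanged. Against MEK5DD libraries, the ERK5-ko log2 value became 0.23 for KRT17 and 2.27 for KRT81 in MDA-MB-231, and 0.0386 for KRT15 and −0.34 for KRT80 in Hs-578T. Leaving out 1 library gave −0.0227 to 0.149 for KRT14 in MDA-MB-231-ERK5-ko, −0.51 to 0.15 for KRT19 in Hs-578T-MEK5DD, −0.48 to 0.0135 for the ERK5-ko difference of KRT17, and −0.47 to 0.12 and −0.25 to 0.0608 for the MEK5DD differences of KRT18 and KRT15. With the replicate block, KRT80 joined the ERK5-ko difference (log2 −0.48, adjusted p = 0.0422) and no other keratin call changed, while KRT8 in MDA-MB-231-MEK5DD and KRT17 in Hs-578T-ERK5-ko came under an adjusted p of 0.05 (0.0346 and 0.0491) at folds too small to be called. Median-ratio scaling and quantile normalization shifted the median of all genes by over 0.1 only between the parental lines (−0.22 and −0.15). Depth limits KRT5 everywhere, KRT14 and KRT17 in MDA-MB-231 and KRT19 in Hs-578T.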
